A study of Homo sapiens with 16 samples.

Results

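The genes described are 50 that copy DNA and supply its nucleotides, measured on Affymetrix expression arrays in 4 human B lineage lines and in hypoxia-resistant (HR) sublines of each. Members were taken from a list of names covering origin licensing, helicase activation, the sliding clamp, polymerases, fragment joining, deoxynucleotide synthesis, S phase regulators and chromatin assembly. All 50 had a probe set with a single gene symbol, out of 18417 genes with one, and all 50 were among the 12639 genes bright enough to test. Each of the 50 lay above the brightness level of the filter, 6.27 on the log2 scale, in 16 of 16 arrays. A gene with several probe sets is represented by that of the highest 16-array mean. Values are log2 intensities as deposited, so a difference of 1 is a 2-fold change, and levels of different genes are not compared because probe sets differ in brightness.

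The 8 groups were U266, KMS-11, RPMI8226 and IM-9 as parental cells grown for 24 hours at 20% oxygen, and RPMI8226-HR, KMS-11-HR, U266-HR and IM-9-HR grown for 24 hours at 1% oxygen, with 2 arrays each. HR cells were read at 1% oxygen alone and parental cells at 20% alone, so resistance and the oxygen level cannot be told apart in any HR comparison. RPMI8226, KMS-11 and U266 come from multiple myeloma, a plasma cell cancer, and IM-9, given as myeloma in the labels, is generally known as a B lymphoblastoid line carrying Epstein-Barr virus. Whether both arrays of a group stand for separate cultures is not stated, so the p-values measure the spread between these arrays, which may be technical. The labels do not say whether an HR line is 1 clone or how it was selected. The median of an array was between 6.22 and 6.34, and 0 pairs of arrays were identical.

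Markers of the lineage were present. XBP1, a transcription factor of secreting plasma cells, lay between 10.18 and 11.40 in the 16 arrays, and JCHAIN, which links immunoglobulin units, between 12.35 and 13.05. PAX5, the B cell identity factor, lay between 8.47 and 8.51 in IM-9 and between 5.31 and 6.35 in the other lines. CD22, another B cell marker, lay between 9.065 and 10.49 in IM-9 and between 4.86 and 5.36 in the others. The remaining B cell markers split the lines less: MS4A1 was 11.25 to 11.42 in IM-9 and 4.60 to 10.21 in the others. CD79B was 7.81 to 8.03 and 6.36 to 7.75, and BLK 7.91 to 8.26 and 6.05 to 8.20. IRF4 and PRDM1, transcription factors of plasma cells, lay between 11.51 and 11.76 and between 9.98 and 10.55 in IM-9, beside 10.44 to 11.40 and 9.24 to 10.89 in the other lines. CD38, a plasma cell surface enzyme, was above the filter level in 4 of the 16 arrays, and its highest value in IM-9 was 5.10. SDC1, TNFRSF17 and MZB1, also plasma cell markers, lay between 8.21 and 8.41, 8.04 and 8.53, and 10.33 and 10.34 in IM-9. In the other lines they lay between 7.87 and 10.21, 6.54 and 10.62, and 7.81 and 10.91. Of the markers of other cell types, 4 of 6 for T and NK cells, 6 of 6 for myeloid cells and 3 of 6 for stromal cells were above the filter level in no array. Of 13 tested genes of the low oxygen response, 13 rose in U266 and 13 in RPMI8226, 12 in KMS-11 and 11 in IM-9, where 1 fell (-0.65). Over all genes tested, 9.68% rose in U266, 10.7% in RPMI8226, 2.44% in KMS-11 and 14.4% in IM-9, where 21.3% fell. BNIP3, a mitophagy receptor induced at low oxygen, rose by 2.05 ± 0.07 in U266, 2.05 ± 0.07 in KMS-11, 1.67 ± 0.07 in RPMI8226 and 1.23 ± 0.07 in IM-9.

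As background, a cell licenses its origins in G1, when the origin recognition complex, CDC6 and CDT1 load the ring-shaped MCM helicase onto DNA. On entry into S phase, kinases together with MCM10, CDC45 and the GINS complex turn the loaded rings into running helicases, and polymerases held by the PCNA clamp copy the strands from deoxynucleotides that ribonucleotide reductase, thymidylate synthase and thymidine kinase supply. Many of these genes are transcribed together by E2F factors when the retinoblastoma protein lets go of them. The reductase needs oxygen to work, and proliferation genes of this kind are used in expression-based risk scores of myeloma.

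Promoters of members that moved together are shown because E2F words were more frequent in member promoters than in those of all genes tested. RefSeq start regions on GRCh38.p14, from 250 bases before to 50 after the start, were at hand for 44 of the 50 members. They were searched on both strands for 4 E2F words, which are TTCCCGC, its variant TTGGCGC, the form TTCGCGC and lastly TTGCCGC. They were also searched for the CCAAT box, for TTTGAA or the related TTCGAA (the cell cycle homology region, CHR, common in mitotic genes), and for ACGTG or the related GCGTG (cores of the hypoxia response element, whose first word overlaps the CACGTG bound by other factors). Below are 150 bases before and 30 bases after the start of MCM7 (chr7:100101368-100101547, minus strand), MCM2 (chr3:127598261-127598440, plus strand), GINS2 (chr16:85688925-85689104, minus strand) and RFC3 (chr13:33817999-33818178, plus strand). MCM2, MCM7, GINS2 and RFC3 fell in KMS-11 and IM-9 and rose in U266. TK1 (chr17:78187175-78187354, minus strand), the member with the largest rise in U266, is set below them. Each is written 5′ to 3′ on the strand of its gene, with E2F words in capitals, overlapping words run together.
MCM7: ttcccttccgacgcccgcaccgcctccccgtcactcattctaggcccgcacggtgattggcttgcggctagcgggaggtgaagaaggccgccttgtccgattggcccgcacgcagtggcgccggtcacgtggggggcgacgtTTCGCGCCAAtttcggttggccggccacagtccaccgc
MCM2: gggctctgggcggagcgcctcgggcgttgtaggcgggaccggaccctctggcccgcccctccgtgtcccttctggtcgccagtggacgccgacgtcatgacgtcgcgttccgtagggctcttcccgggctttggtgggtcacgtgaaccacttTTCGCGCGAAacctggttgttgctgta
GINS2: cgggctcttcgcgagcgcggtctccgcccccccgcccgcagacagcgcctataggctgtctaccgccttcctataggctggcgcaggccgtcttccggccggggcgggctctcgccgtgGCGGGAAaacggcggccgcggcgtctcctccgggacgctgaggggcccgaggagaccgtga
RFC3: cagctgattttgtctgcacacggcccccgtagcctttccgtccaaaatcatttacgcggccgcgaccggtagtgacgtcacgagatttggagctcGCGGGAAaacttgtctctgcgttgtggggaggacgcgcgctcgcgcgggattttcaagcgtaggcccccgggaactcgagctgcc
TK1: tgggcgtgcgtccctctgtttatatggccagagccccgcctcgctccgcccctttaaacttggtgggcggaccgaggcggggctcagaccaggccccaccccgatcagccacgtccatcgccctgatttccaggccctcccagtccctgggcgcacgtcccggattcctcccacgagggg
In MCM7 the capitals hold 2 overlapping words at the start, in MCM2 2 overlapping words just after it, and TK1 has none in this window. An E2F word was found in 31 of the 44 member regions (70.5%), against 20.4% of 10057 such regions of genes tested and 13.1% of all 27305 in the table. CCAAT was found in 52.3% of member regions against 36.7% of regions of genes tested, the CHR words in 4.55% against 11.5%, and the hypoxia response core in 68.2% against 62.6%. The share with an E2F word was 19 of 26 (73.1%) among regions of members that rose in U266, 19 of 25 (76%) among those that fell in KMS-11, 17 of 24 (70.8%) among those that fell in IM-9 and 9 of 10 (90%) among those that fell in RPMI8226. Members without a word in the region included, besides TK1, MCM10, CDC45, FEN1, DUT, RRM2, GMNN and CCNE1. Of these, MCM10 and CDC45 fell in KMS-11 and IM-9 and rose in U266, as did the first 4 genes printed above. These matches describe letters in a short window and say nothing on binding.

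The replication genes moved in opposite directions in different lines. In KMS-11-HR 28 of 50 members fell and 0 rose, where fell and rose mean an adjusted p under 0.05 (limma, Benjamini-Hochberg over all genes tested), against 5.83% and 2.44% of all genes tested. In U266-HR 31 rose and 0 fell, against 9.68% and 8.42% of all genes. IM-9-HR had 26 members that fell and 3 that rose, against 21.3% and 14.4% of all genes, and RPMI8226-HR 12 that fell and 3 that rose, against 15.3% and 10.7%. The median HR minus parental difference of the 50 was -0.29 in KMS-11, 0.31 in U266, -0.20 in IM-9 and -0.08 in RPMI8226, beside -0.02, -0.01, -0.06 and -0.01 over all genes tested. By sign alone, 49 of 50 were lower in KMS-11-HR, 43 of 50 higher in U266-HR, 41 lower in IM-9-HR and 33 lower in RPMI8226-HR. Over all 12639 genes tested, 6873 were lower in KMS-11-HR, 5959 higher in U266-HR, 7598 lower in IM-9-HR and 6715 lower in RPMI8226-HR. The changes were small in size. None of the 50 reached 2-fold in any line, and called changes lay between 0.24 and 0.68 in KMS-11, 0.20 and 0.74 in U266, 0.17 and 0.82 in IM-9 and 0.19 and 0.64 in RPMI8226, with standard errors of 0.06 to 0.18 (2 arrays per group, all 16 arrays sharing one estimate of the spread). In whole cultures, fewer cells in S phase and less RNA of these genes per cell cannot be told apart.

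**Figure D1:**
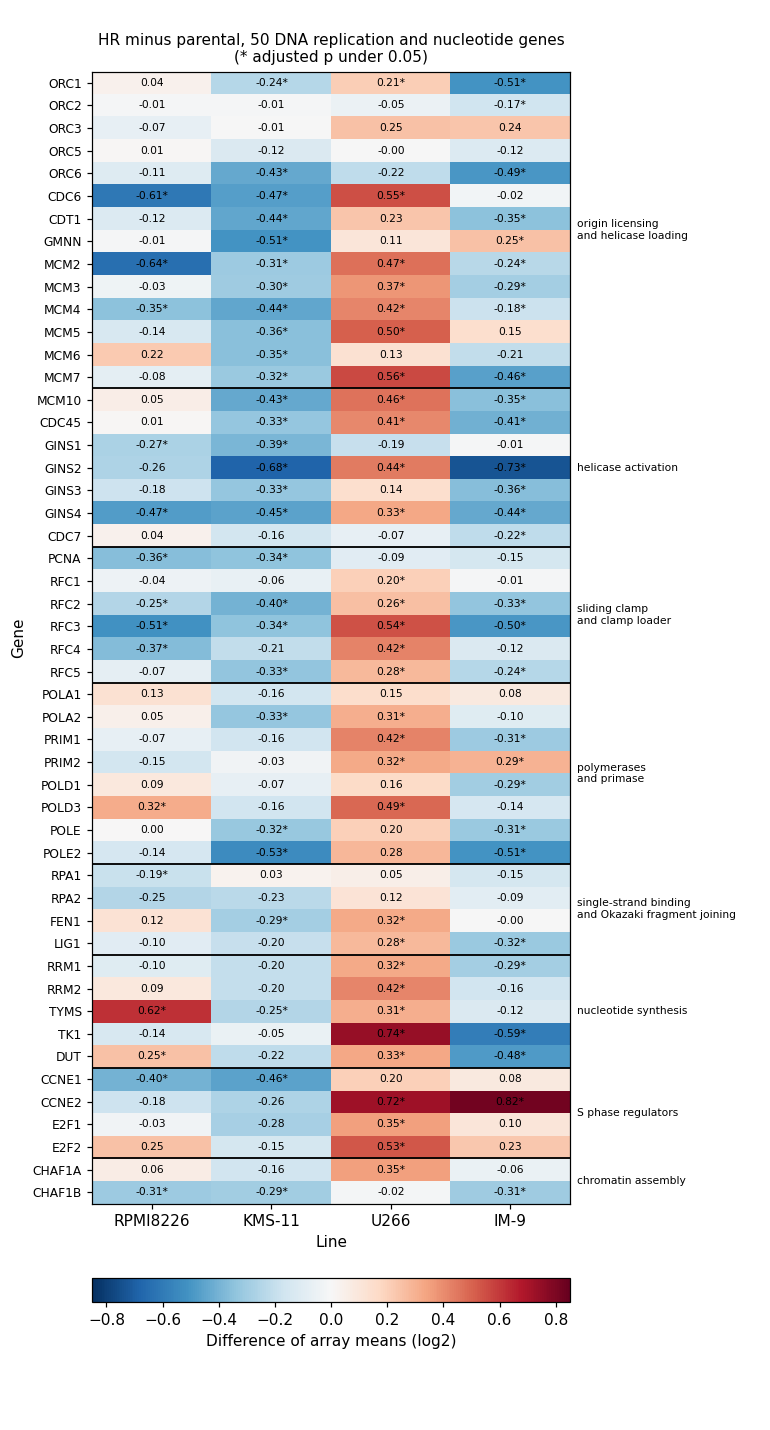
HR minus parental difference of array means on the log2 scale for each of the 50 members (vertical, grouped by role) in the 4 lines (horizontal), with the number in each cell and an asterisk where the adjusted p was under 0.05. The KMS-11 column is blue in 49 of 50 cells and the U266 column red in 43 of 50.

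The KMS-11 and U266 counts rested on few arrays. Without KMS-11 parental array 1 or 2, 17 and 9 members fell in KMS-11, and without KMS-11-HR array 1 or 2, 9 and 13. Without U266 parental array 2 or U266-HR array 2, 20 members rose in U266. In these runs the lone array left in a group is assumed to vary like the other groups. Calls over all genes tested were also fewer in the line that lost an array, so the loss was not particular to the members. Centring each array on its median changed the split over all genes in KMS-11 from 308 rises and 737 falls to 420 and 480, with 22 of 50 members falling and 0 rising, and the split of members in RPMI8226 from 3 rises and 12 falls to 5 and 11.

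Origin licensing and helicase loading, with 14 members, fell most widely in KMS-11, where 11 fell, and in IM-9, where 8 fell and 1 rose. The group had 7 rises and 0 falls in U266 and 3 falls and 0 rises in RPMI8226, and its median difference was -0.34, -0.20, 0.24 and -0.08 in KMS-11, IM-9, U266 and RPMI8226. MCM2, a subunit of the hexameric MCM helicase, read 9.83 and 9.88 in parental RPMI8226 and 9.18 and 9.25 in RPMI8226-HR, 9.12 and 9.17 in parental KMS-11 and 8.83 and 8.85 in KMS-11-HR, 8.98 and 9.001 in parental U266 and 9.43 and 9.49 in U266-HR, and 9.42 and 9.39 in parental IM-9 and 9.19 and 9.14 in IM-9-HR. Its HR arrays lay below the parental arrays in 3 lines and above them in U266, with no overlap in any line. MCM2 fell by 0.64 ± 0.06 in RPMI8226 (adjusted p 4.11e-06), by 0.31 ± 0.06 in KMS-11 (0.00588) and by 0.24 ± 0.06 in IM-9 (0.00616), and rose by 0.47 ± 0.06 in U266 (7e-05). MCM7, another subunit of the ring, read 11.15 and 11.07 in parental RPMI8226 and 11.12 and 10.94 in RPMI8226-HR, 10.06 and 10.02 in parental KMS-11 and 9.73 and 9.71 in KMS-11-HR, 9.31 and 9.22 in parental U266 and 9.80 and 9.87 in U266-HR, and 10.48 and 10.50 in parental IM-9 and 10.03 and 10.03 in IM-9-HR. The RPMI8226 arrays overlapped and the others did not. MCM7 rose by 0.56 ± 0.07 in U266 (adjusted p 6.66e-05) and fell by 0.32 ± 0.07 in KMS-11 (0.0127) and 0.46 ± 0.07 in IM-9 (0.000219), and its difference was -0.08 ± 0.07 in RPMI8226 (0.44).

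The other 4 subunits of the ring each fell in KMS-11, and 3 of them rose in U266. MCM4 read 10.20 and 10.24 in parental RPMI8226 and 9.87 and 9.87 in RPMI8226-HR, 9.44 and 9.47 in parental KMS-11 and 8.95 and 9.07 in KMS-11-HR, 9.14 and 9.03 in parental U266 and 9.52 and 9.49 in U266-HR, and 9.97 and 10.09 in parental IM-9 and 9.80 and 9.89 in IM-9-HR, with no overlap in any line. It fell by 0.35 ± 0.07, 0.44 ± 0.07 and 0.18 ± 0.07 in RPMI8226, KMS-11 and IM-9 and rose by 0.42 ± 0.07 in U266. The IM-9 fall of MCM4 was at the threshold, with an adjusted p of 0.0498. MCM3 was 9.83 and 9.78 in parental and 9.50 and 9.51 in HR cells in KMS-11, 10.07 and 10.13 in parental and 9.82 and 9.81 in HR cells in IM-9 and 9.39 and 9.46 in parental and 9.74 and 9.86 in HR cells in U266. Arrays were apart in each of these lines, and MCM3 fell by 0.30 ± 0.06 (adjusted p 0.0112) and 0.29 ± 0.06 (0.00365) and rose by 0.37 ± 0.06 (0.00104). MCM5 fell in KMS-11, 9.76 and 9.76 in parental and 9.44 and 9.38 in HR cells, and rose in U266, 9.65 and 9.59 in parental and 10.11 and 10.14 in HR cells. The MCM5 changes were -0.36 ± 0.06 (adjusted p 0.00411) and 0.50 ± 0.06 (7.67e-05). In IM-9 its difference of 0.15 ± 0.06 had the sign opposite to the other subunits and did not pass (adjusted p 0.087). MCM6 fell in KMS-11 by 0.35 ± 0.09 and passed in no other line, its U266 difference being 0.13 ± 0.09. That fall was lost without any one of the 4 KMS-11 arrays (adjusted p up to 0.156). Of the 6 MCM subunits on the list, 6 therefore fell in KMS-11, 5 rose in U266, 4 fell in IM-9 and 2 fell in RPMI8226.

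CDC6, the ATPase that loads MCM rings with CDT1, read 10.55 and 10.72 in parental RPMI8226 and 10.08 and 9.98 in RPMI8226-HR, 9.52 and 9.45 in parental KMS-11 and 8.92 and 9.10 in KMS-11-HR, 8.49 and 8.48 in parental U266 and 9.04 and 9.03 in U266-HR, and 9.67 and 9.77 in parental IM-9 and 9.70 and 9.69 in IM-9-HR. Its parental and HR arrays were apart in RPMI8226, KMS-11 and U266 and overlapped in IM-9. CDC6 fell by 0.61 ± 0.08 in RPMI8226 (adjusted p 8.77e-05) and 0.47 ± 0.08 in KMS-11 (0.00307), rose by 0.55 ± 0.08 in U266 (0.000244) and differed by -0.02 ± 0.08 in IM-9 (0.854). ORC1, the origin recognition subunit that is renewed each cycle, was 8.57 and 8.61 in parental and 8.09 and 8.07 in HR cells in IM-9, 8.98 and 9.10 in parental and 8.80 and 8.78 in HR cells in KMS-11 and 8.04 and 8.08 in parental and 8.23 and 8.30 in HR cells in U266. ORC1 fell by 0.51 ± 0.06 (adjusted p 2.81e-05) and 0.24 ± 0.06 (0.0234) and rose by 0.21 ± 0.06 (0.0257), with no overlap of arrays in these lines. GMNN, geminin, which holds CDT1 inactive after S phase begins, was 7.29 and 7.42 in parental and 6.77 and 6.91 in HR cells in KMS-11 and 7.27 and 7.54 in parental and 7.65 and 7.66 in HR cells in IM-9. It fell in KMS-11 by 0.51 ± 0.09 (adjusted p 0.00441) and rose in IM-9 by 0.25 ± 0.09 (0.0457), opposite to most members of that line. CDT1 itself fell in KMS-11 by 0.44 ± 0.08 and in IM-9 by 0.35 ± 0.08. Of the other origin recognition subunits, ORC6 fell in KMS-11 (-0.43 ± 0.09) and IM-9 (-0.49 ± 0.09), ORC2 fell in IM-9 (-0.17 ± 0.06), and ORC3 and ORC5 passed in no line.

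With 1 array of the line left out, several of these calls were lost. Those of MCM3 and MCM7 in KMS-11 were lost without any one of the 4 KMS-11 arrays (adjusted p up to 0.0932 and 0.0951), that of ORC1 in KMS-11 without parental array 2, HR array 1 or HR array 2 (up to 0.206), those of MCM2 and GMNN in KMS-11 without parental array 2 or HR array 1 (up to 0.0646 and 0.0547), and that of MCM5 in KMS-11 without HR array 2 (0.0509). ORC1 in U266 was lost without any one of the 4 U266 arrays (up to 0.182). In IM-9, MCM2 was lost without HR array 2 (0.0533), GMNN without parental array 1, HR array 1 or HR array 2 (up to 0.386), and MCM4 without parental array 2, HR array 1 or HR array 2 (up to 0.256). GMNN and MCM4 in IM-9 were also lost without single arrays of other lines, with adjusted p from 0.0502 to 0.0664.

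**Figure D2:**
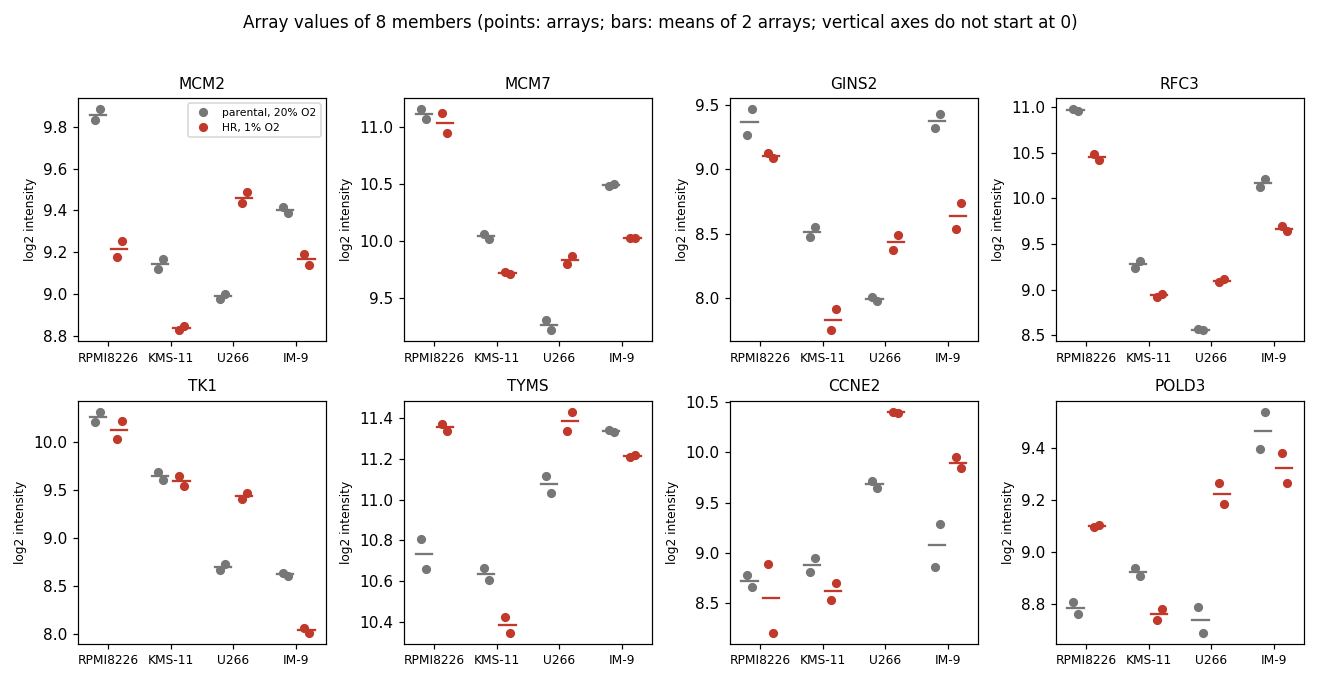
Log2 intensity (vertical, axes not starting at 0) of 8 members in each line (horizontal), with 1 point per array, grey for parental cells at 20% oxygen and red for HR cells at 1% oxygen, and a bar at the mean of 2 arrays. For MCM2, GINS2 and RFC3 the red points lie below the grey ones in RPMI8226, KMS-11 and IM-9 and above them in U266.

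Helicase activation, with 7 members, was the group in which the largest share fell, 6 of 7 in KMS-11 and 6 of 7 in IM-9, while 4 rose in U266 and 2 fell in RPMI8226. Median differences were -0.39, -0.36, 0.33 and -0.18 in KMS-11, IM-9, U266 and RPMI8226. GINS2, a subunit of the GINS complex that completes the active helicase, read 9.27 and 9.47 in parental RPMI8226 and 9.13 and 9.09 in RPMI8226-HR, 8.47 and 8.55 in parental KMS-11 and 7.75 and 7.92 in KMS-11-HR, 8.01 and 7.97 in parental U266 and 8.37 and 8.49 in U266-HR, and 9.32 and 9.43 in parental IM-9 and 8.54 and 8.74 in IM-9-HR. No line had overlapping arrays. GINS2 showed the largest fall of any member in both KMS-11, -0.68 ± 0.09 (adjusted p 0.000721), and IM-9, -0.73 ± 0.09 (4.9e-05), and rose in U266 by 0.44 ± 0.09 (0.00399). In RPMI8226 its difference of -0.26 ± 0.09 did not pass (adjusted p 0.0518). GINS4, another subunit, read 7.73 and 8.02 in parental RPMI8226 and 7.40 and 7.41 in RPMI8226-HR, 7.81 and 7.81 in parental KMS-11 and 7.32 and 7.38 in KMS-11-HR, 7.35 and 7.28 in parental U266 and 7.63 and 7.65 in U266-HR, and 8.17 and 8.30 in parental IM-9 and 7.78 and 7.81 in IM-9-HR. The arrays of GINS4 were apart in every line, and it fell by 0.47 ± 0.08, 0.45 ± 0.08 and 0.44 ± 0.08 in RPMI8226, KMS-11 and IM-9 and rose by 0.33 ± 0.08 in U266 (adjusted p 0.0154). GINS3 fell in KMS-11 (-0.33 ± 0.07) and IM-9 (-0.36 ± 0.07), and GINS1 fell in KMS-11 (-0.39 ± 0.07) and RPMI8226 (-0.27 ± 0.07). The U266 rise was not shared by the whole complex: GINS1 differed by -0.19 ± 0.07 there (adjusted p 0.0771) and GINS3 by 0.14 ± 0.07 (0.177).

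MCM10, which helps CDC45 and GINS onto the rings and starts them moving, was 9.70 and 9.75 in parental and 9.29 and 9.29 in HR cells in KMS-11, 8.86 and 8.86 in parental and 9.32 and 9.32 in HR cells in U266 and 9.42 and 9.45 in parental and 9.07 and 9.10 in HR cells in IM-9. It fell by 0.43 ± 0.06 (adjusted p 0.00127) and 0.35 ± 0.06 (0.000798) and rose by 0.46 ± 0.06 (0.000179), while the arrays overlapped in RPMI8226. CDC45, the third component of the running helicase, was 8.58 and 8.55 in parental and 8.27 and 8.20 in HR cells in KMS-11, 7.90 and 7.80 in parental and 8.25 and 8.27 in HR cells in U266 and 8.61 and 8.57 in parental and 8.20 and 8.16 in HR cells in IM-9. The CDC45 changes were -0.33 ± 0.08 (adjusted p 0.0253), 0.41 ± 0.08 (0.00329) and -0.41 ± 0.08 (0.00185). CDC7, the kinase that triggers MCM rings, fell in IM-9 (-0.22 ± 0.07) and passed nowhere else. CDC45 in KMS-11 was lost without any one of the 4 KMS-11 arrays (adjusted p up to 0.161) and when arrays were centred on their medians (0.0571). GINS4 in KMS-11 was lost without HR array 1 (0.0545), and in U266 without parental array 2, HR array 1 or HR array 2 (up to 0.104).

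The sliding clamp and its loader, 6 members, gave the widest response in RPMI8226, where 4 fell and 0 rose, and 4 fell in KMS-11, 3 fell in IM-9 and 5 rose in U266. The medians were -0.31, -0.34, -0.19 and 0.27 in RPMI8226, KMS-11, IM-9 and U266. RFC3, a small subunit of the loader that opens the PCNA ring, read 10.98 and 10.96 in parental RPMI8226 and 10.49 and 10.42 in RPMI8226-HR, 9.24 and 9.31 in parental KMS-11 and 8.92 and 8.95 in KMS-11-HR, 8.56 and 8.55 in parental U266 and 9.08 and 9.11 in U266-HR, and 10.12 and 10.21 in parental IM-9 and 9.69 and 9.64 in IM-9-HR. Arrays of the groups compared were apart in every line. RFC3 fell by 0.51 ± 0.06 in RPMI8226 (adjusted p 3.85e-05), 0.34 ± 0.06 in KMS-11 (0.00411) and 0.50 ± 0.06 in IM-9 (3.64e-05), and rose by 0.54 ± 0.06 in U266 (2.81e-05). RFC2, another small subunit of the loader, read 9.90 and 10.03 in parental RPMI8226 and 9.71 and 9.71 in RPMI8226-HR, 9.43 and 9.38 in parental KMS-11 and 8.99 and 9.02 in KMS-11-HR, 8.91 and 8.85 in parental U266 and 9.14 and 9.14 in U266-HR, and 9.80 and 9.84 in parental IM-9 and 9.50 and 9.47 in IM-9-HR. RFC2 had the same directions without overlap, with falls of -0.25 ± 0.06, -0.40 ± 0.06 and -0.33 ± 0.06 and a rise of 0.26 ± 0.06 (adjusted p 0.009).

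RFC4, also a small subunit, was 10.87 and 10.84 in parental and 10.58 and 10.40 in HR cells in RPMI8226 and 10.46 and 10.36 in parental and 10.86 and 10.81 in HR cells in U266. It fell by 0.37 ± 0.07 in RPMI8226 (adjusted p 0.00169) and rose by 0.42 ± 0.07 in U266 (0.000915), and in KMS-11 and IM-9 its differences of -0.21 ± 0.07 and -0.12 ± 0.07 did not pass. RFC5 was 8.82 and 8.93 in parental and 8.51 and 8.58 in HR cells in KMS-11, 9.12 and 9.07 in parental and 9.37 and 9.37 in HR cells in U266 and 9.54 and 9.52 in parental and 9.27 and 9.32 in HR cells in IM-9. RFC5 fell by 0.33 ± 0.07 and 0.24 ± 0.07 in KMS-11 and IM-9 and rose by 0.28 ± 0.07 in U266. RFC1, the large subunit, rose in U266 by 0.20 ± 0.06 and passed in no other line. PCNA, the clamp itself, differed in the same direction in all 4 lines: it fell in RPMI8226 by 0.36 ± 0.08 and in KMS-11 by 0.34 ± 0.08, and its differences of -0.15 ± 0.08 in IM-9 and -0.09 ± 0.08 in U266 did not pass. Of the calls in this group, RFC3 in KMS-11 was lost without parental array 2 (adjusted p 0.053), RFC5 in KMS-11 without parental array 2 or HR array 1 (up to 0.093), RFC2 in RPMI8226 without parental array 2 (0.0665), RFC2 and RFC5 in U266 without parental array 2, HR array 1 or HR array 2 (up to 0.0792 and 0.0825), and RFC5 in IM-9 without parental array 1 or HR array 1 (up to 0.0822).

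Polymerases and primase, 8 members, were called less often in KMS-11 than the 2 helicase groups: 3 of 8 fell there, against 11 of 14 and 6 of 7, and that difference between groups was not tested. In U266 4 rose, in IM-9 4 fell and 1 rose, and in RPMI8226 1 rose and 0 fell, with medians of -0.16, 0.30, -0.22 and 0.02 in KMS-11, U266, IM-9 and RPMI8226. POLD3, an accessory subunit of polymerase delta, read 8.81 and 8.76 in parental RPMI8226 and 9.10 and 9.11 in RPMI8226-HR, 8.94 and 8.91 in parental KMS-11 and 8.74 and 8.78 in KMS-11-HR, 8.79 and 8.69 in parental U266 and 9.27 and 9.18 in U266-HR, and 9.40 and 9.54 in parental IM-9 and 9.38 and 9.27 in IM-9-HR. Its arrays overlapped in no line. POLD3 rose by 0.49 ± 0.07 in U266 (adjusted p 0.000252) and by 0.32 ± 0.07 in RPMI8226 (0.0043), and its differences of -0.16 ± 0.07 in KMS-11 and -0.14 ± 0.07 in IM-9 did not pass. POLE2, a subunit of the leading-strand polymerase epsilon, was 7.92 and 8.08 in parental and 7.48 and 7.47 in HR cells in KMS-11 and 8.73 and 8.99 in parental and 8.36 and 8.34 in HR cells in IM-9. It fell by 0.53 ± 0.10 (adjusted p 0.00464) and 0.51 ± 0.10 (0.00116), with no overlap. Its catalytic partner POLE fell by 0.32 ± 0.07 in KMS-11 and 0.31 ± 0.07 in IM-9.

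The primase and polymerase alpha complex, which lays down the primers, was mixed. PRIM1, the catalytic primase subunit, was 10.04 and 10.02 in parental and 10.47 and 10.44 in HR cells in U266 and 9.70 and 9.86 in parental and 9.46 and 9.48 in HR cells in IM-9. It rose in U266 by 0.42 ± 0.07 (adjusted p 0.00129) and fell in IM-9 by 0.31 ± 0.07 (0.00573), and neither pair of groups overlapped. POLA2, the regulatory subunit of polymerase alpha, was 9.32 and 9.36 in parental and 9.03 and 8.99 in HR cells in KMS-11 and 8.53 and 8.45 in parental and 8.76 and 8.84 in HR cells in U266. POLA2 fell in the first by 0.33 ± 0.07 (adjusted p 0.0164) and rose in the second by 0.31 ± 0.07 (0.00979). PRIM2, the other primase subunit, rose in U266 (0.32 ± 0.10) and in IM-9 (0.29 ± 0.10), where PRIM1 fell. POLA1, the catalytic subunit of polymerase alpha, passed in no line, and POLD1, that of polymerase delta, fell in IM-9 (-0.29 ± 0.07). POLA2 in KMS-11 was lost without any one of the 4 KMS-11 arrays (adjusted p up to 0.112) and in U266 without parental array 2 or HR array 2 (up to 0.0909), and POLE2 in KMS-11 without parental array 2 (0.0591).

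Single-strand binding and Okazaki fragment joining had 4 members, with 2 rises in U266 and 1 fall in each other line. The medians were 0.20 in U266, -0.14 in RPMI8226, -0.21 in KMS-11 and -0.12 in IM-9. LIG1, the ligase that seals lagging-strand fragments, was 7.44 and 7.52 in parental and 7.75 and 7.77 in HR cells in U266 and 8.08 and 8.01 in parental and 7.73 and 7.74 in HR cells in IM-9. It rose by 0.28 ± 0.06 (adjusted p 0.00638) and fell by 0.32 ± 0.06 (0.0015), without overlap. FEN1, the flap nuclease that trims those fragments, was 9.26 and 9.25 in parental and 8.99 and 8.95 in HR cells in KMS-11 and 9.67 and 9.66 in parental and 10.01 and 9.97 in HR cells in U266. FEN1 fell by 0.29 ± 0.06 in the first (adjusted p 0.0144) and rose by 0.32 ± 0.06 in the second (0.00272). RPA1, which coats single strands, fell in RPMI8226 (-0.19 ± 0.06), and its partner RPA2 passed in no line. FEN1 in KMS-11 was lost without any one of the 4 KMS-11 arrays (adjusted p up to 0.103) and after centring on array medians (0.0541), and LIG1 in U266 without parental array 1 (0.0719).

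Nucleotide synthesis, 5 members, was the group in which every member rose in U266, 5 of 5, with a median of 0.33. In the other lines it split: 1 fell in KMS-11 (median -0.20), 3 fell in IM-9 (-0.29), and 2 rose and 0 fell in RPMI8226 (0.09). TK1, the cytosolic thymidine kinase that salvages thymidine, read 10.21 and 10.32 in parental RPMI8226 and 10.03 and 10.22 in RPMI8226-HR, 9.69 and 9.61 in parental KMS-11 and 9.65 and 9.54 in KMS-11-HR, 8.66 and 8.73 in parental U266 and 9.41 and 9.47 in U266-HR, and 8.64 and 8.60 in parental IM-9 and 8.06 and 8.01 in IM-9-HR. The U266 and IM-9 arrays were far apart, and those of RPMI8226 and KMS-11 overlapped. TK1 rose by 0.74 ± 0.08 in U266 (adjusted p 1.38e-05), a 1.67-fold change, and fell by 0.59 ± 0.08 in IM-9 (6.88e-05), whereas its difference was -0.05 ± 0.08 in KMS-11 (0.726) and -0.14 ± 0.08 in RPMI8226 (0.206). TYMS, thymidylate synthase, which makes thymidylate from deoxyuridylate, read 10.81 and 10.66 in parental RPMI8226 and 11.37 and 11.34 in RPMI8226-HR, 10.67 and 10.61 in parental KMS-11 and 10.42 and 10.35 in KMS-11-HR, 11.12 and 11.04 in parental U266 and 11.34 and 11.43 in U266-HR, and 11.34 and 11.33 in parental IM-9 and 11.21 and 11.22 in IM-9-HR. Its arrays did not overlap in any line. TYMS rose by 0.62 ± 0.07 in RPMI8226 (adjusted p 1.94e-05), the largest rise of a member in that line, and by 0.31 ± 0.07 in U266 (0.00542), and fell by 0.25 ± 0.07 in KMS-11 (0.0352).

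DUT, the enzyme that removes dUTP and so keeps uracil out of DNA, read 8.60 and 8.45 in parental RPMI8226 and 8.86 and 8.69 in RPMI8226-HR, 8.53 and 8.54 in parental KMS-11 and 8.31 and 8.33 in KMS-11-HR, 8.63 and 8.74 in parental U266 and 9.01 and 9.02 in U266-HR, and 9.02 and 8.998 in parental IM-9 and 8.51 and 8.55 in IM-9-HR. It rose in RPMI8226 by 0.25 ± 0.07 (adjusted p 0.0208) and in U266 by 0.33 ± 0.07 (0.00542) and fell in IM-9 by 0.48 ± 0.07 (0.000191), with no overlap in any line. RRM1, the large subunit of ribonucleotide reductase, was 10.42 and 10.40 in parental and 10.72 and 10.74 in HR cells in U266 and 11.25 and 11.39 in parental and 11.06 and 11.01 in HR cells in IM-9. RRM1 rose by 0.32 ± 0.08 (adjusted p 0.0173) and fell by 0.29 ± 0.08 (0.0176). RRM2, the small subunit that carries the radical, rose in U266 by 0.42 ± 0.07 and passed in no other line. TYMS in KMS-11 was lost without any one of the 4 KMS-11 arrays and without either IM-9-HR array (adjusted p up to 0.215), with the replicate block (0.0562) and after centring on array medians (0.0812), and TYMS in U266 without parental array 2 or HR array 2 (up to 0.0664). DUT in RPMI8226 was lost without parental array 2 or HR array 1 (up to 0.167) and DUT in U266 without parental array 1 (0.0649). RRM1 in U266 was lost without any one of the 4 U266 arrays (up to 0.0935) and in IM-9 without parental array 2, HR array 1 or HR array 2 (up to 0.106).

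**Figure D3:**
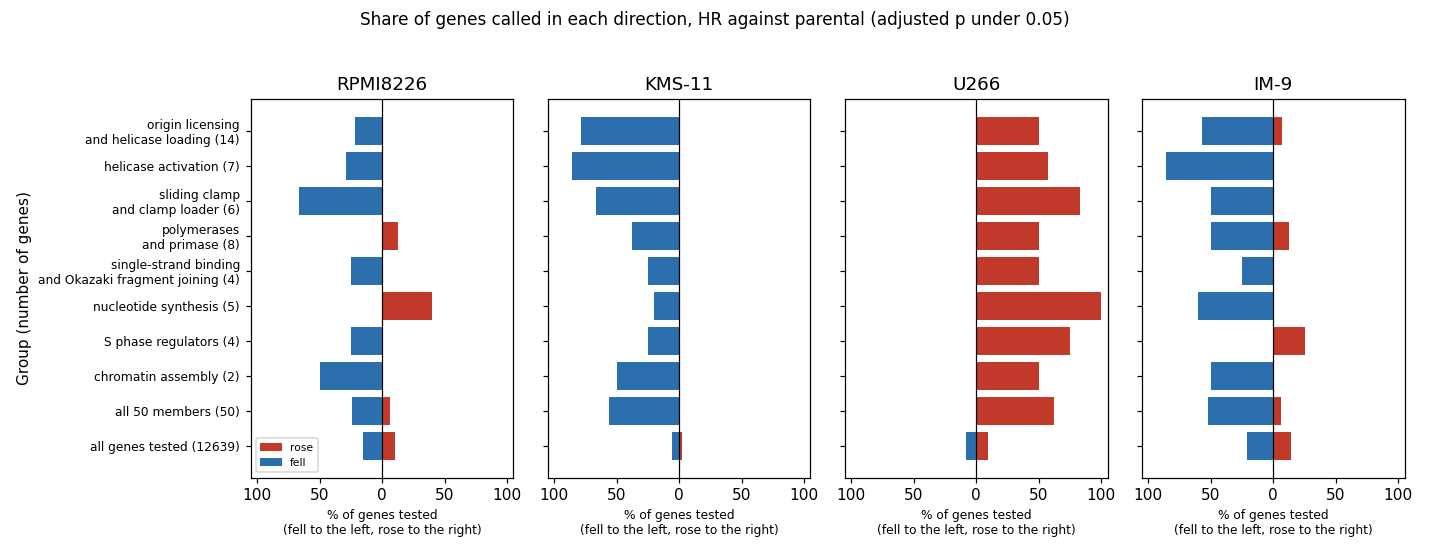
Share in percent of the genes of each role group (vertical, with the number of genes) called lower (blue, to the left of 0) or higher (red, to the right) in HR cells of each line, above the same for all 12639 genes tested. Nucleotide synthesis reaches 5 of 5 rises in U266 and 2 of 5 in RPMI8226, while helicase activation reaches 6 of 7 falls in KMS-11 and IM-9.

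S phase regulators, 4 members, rose in U266 in 3 cases (median 0.44), and 1 rose in IM-9, 1 fell in KMS-11 and 1 fell in RPMI8226. CCNE2, cyclin E2, which activates CDK2 at S phase entry, read 8.78 and 8.67 in parental RPMI8226 and 8.89 and 8.21 in RPMI8226-HR, 8.81 and 8.95 in parental KMS-11 and 8.54 and 8.71 in KMS-11-HR, 9.72 and 9.64 in parental U266 and 10.41 and 10.40 in U266-HR, and 8.86 and 9.29 in parental IM-9 and 9.95 and 9.84 in IM-9-HR. The HR arrays were higher without overlap in U266 and IM-9, and in RPMI8226 the 2 HR arrays lay on both sides of the parental ones. CCNE2 rose by 0.82 ± 0.18 in IM-9 (adjusted p 0.00306), the largest change of any member in any line, and by 0.72 ± 0.18 in U266 (0.0125). It also had the largest standard errors. CCNE1, cyclin E1, fell by 0.46 ± 0.13 in KMS-11 and 0.40 ± 0.13 in RPMI8226 and passed in neither of the lines where CCNE2 rose. E2F1 and E2F2, activating E2F factors, rose in U266 by 0.35 ± 0.11 and 0.53 ± 0.09 and passed in no other line. CCNE2 in U266 was lost without any one of the 4 U266 arrays (adjusted p from 0.0501 to 0.0754).

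The chromatin assembly factor subunits that place histones behind the fork were CHAF1A and CHAF1B. CHAF1B was 7.999 and 8.05 in parental and 7.83 and 7.61 in HR cells in RPMI8226, 8.11 and 8.15 in parental and 7.85 and 7.82 in HR cells in KMS-11 and 9.23 and 9.19 in parental and 8.89 and 8.92 in HR cells in IM-9. It fell by 0.31 ± 0.07, 0.29 ± 0.07 and 0.31 ± 0.07 in those lines (adjusted p 0.00724, 0.0264 and 0.00578), and in U266, where the arrays overlapped, its difference was -0.02 ± 0.07. CHAF1A was 8.53 and 8.51 in parental and 8.90 and 8.85 in HR cells in U266. It rose there by 0.35 ± 0.08 (adjusted p 0.00625) and passed in no other line. CHAF1B in KMS-11 was lost without any one of the 4 KMS-11 arrays (adjusted p up to 0.153), with the replicate block (0.0563), without the filter (0.0526) and after centring on array medians (0.0592). CHAF1B in RPMI8226 was lost without HR array 2 (0.0683), and CHAF1A in U266 without HR array 1 (0.0548).

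The 17 members given without their arrays made 25 calls, and 19 of these were lost in at least 1 run that left out an array of the line. In KMS-11 it was 8 of 8, those of ORC6, CDT1, MCM6, GINS1, GINS3, PCNA, POLE and CCNE1, with adjusted p up to 0.276, for CCNE1. In IM-9 it was 5 of 8, those of ORC2, CDT1, CDC7, PRIM2 and POLE (up to 0.3, for PRIM2), in RPMI8226 3 of 4, those of GINS1, RPA1 and CCNE1 (up to 0.327, for CCNE1), and in U266 3 of 5, those of RFC1, PRIM2 and E2F1 (up to 0.251, for RFC1). The 6 that passed without any one array of their line were ORC6, GINS3 and POLD1 in IM-9, PCNA in RPMI8226, and RRM2 and E2F2 in U266. Over all 50 members, 5 of 28 calls passed in this way in KMS-11, 9 of 15 in RPMI8226, 17 of 31 in U266 and 19 of 29 in IM-9.

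Across the role groups, 6 members fell in 3 or more lines, MCM2, MCM4, GINS4, RFC2, RFC3 and CHAF1B, and the first 5 of these rose in U266. Calls of both directions in different lines were made for 24 members. Of the 28 that fell in KMS-11, 17 rose in U266, and of the 26 that fell in IM-9, 17 did. These shares were close to that of the whole list, in which 31 of 50 rose in U266. How often calls were joined in these ways over all genes tested was not counted. The members that fell in both KMS-11 and IM-9 numbered 18, of which 12 rose in U266: ORC1, MCM2, MCM3, MCM4, MCM7, MCM10, CDC45, GINS2, GINS4, RFC2, RFC3 and RFC5, all of them genes that load, start or clamp the replication machinery. ORC3, ORC5, POLA1 and RPA2 passed in no line.

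The differences between lines were tested directly. An F test over the 4 HR effects passed for 39 of 50 members, against 45.4% of all genes tested. In the pairwise tests, the HR effect was lower in KMS-11 than in U266 for 36 members and higher for 0, against 14.1% of all genes in either direction, with a median difference of -0.61. U266 exceeded IM-9 for 31 members and was lower for 0 (30.3% of all genes in either direction), with a median of 0.48. RPMI8226 was lower than U266 for 26 and higher for 1, TYMS (25.6%), with a median of -0.34. MCM7 differed by -0.88 ± 0.10 between KMS-11 and U266 (adjusted p 5.78e-05), GINS2 by -1.12 ± 0.13 (8.52e-05), and TK1 by 1.33 ± 0.11 between U266 and IM-9 (1.85e-06). CCNE2 was the exception among the largest changes: its effects in U266 and IM-9 differed by -0.10 ± 0.25 (0.794).

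The 3 lines in which members fell differed from each other for fewer members than each did from U266. The counts below were near or somewhat above the shares over all genes, and that comparison was not tested. KMS-11 and IM-9 differed for 8 members, 2 higher and 6 lower in KMS-11, beside 17.5% of all genes. RPMI8226 and KMS-11 differed for 12, of which 11 were higher in RPMI8226 (17.6% of all genes), with a median of 0.18. RPMI8226 and IM-9 differed for 19, 14 higher and 5 lower in RPMI8226 (31.5%), with a median of 0.14. The 11 members that did not pass the F test were ORC2, ORC3, ORC5, ORC6, CDC7, PCNA, RFC1, POLA1, RPA1, RPA2 and CHAF1B.

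With the line as the unit, 0 of 50 members were called across lines in limma on 8 group means, against 0% of all genes tested, and the smallest adjusted p was 0.764. The alternative with the replicate block called 1, ORC6 at -0.31 (adjusted p 0.0485), and the smallest adjusted p ranged from 0.168 to 0.913 over the other alternatives. At an unadjusted p under 0.05, 4 members were lower and 0 higher: ORC6 by -0.31 ± 0.09, PCNA by -0.24 ± 0.08, CHAF1B by -0.23 ± 0.08 and GINS1 by -0.22 ± 0.08, and these were lower in 4 of 4 lines, as was ORC2. Over all genes tested, 505 were lower and 288 higher at that unadjusted level.

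The parental cells differed in these genes, as in most genes tested, before any HR comparison. Parental levels differed between the lines for 50 of 50 members by the F test, against 94.3% of all genes tested. Parental U266 had the lowest mean of the 4 lines for 26 of 50 members and parental IM-9 the highest for 23. Among the HR cells the lowest was KMS-11-HR for 28, and U266-HR was lowest for 4 and highest for 20. How often each line was lowest or highest over all genes tested was not counted. Of the 31 members that rose in U266, parental U266 was lowest for 18 and U266-HR for 1, from the same arrays that gave the calls. The median span between the highest and lowest line was 0.88 among parental cells and 0.87 among HR cells, larger than any HR effect on a member in these lines. RFC3, for example, was lower in parental U266 than in parental RPMI8226 by a difference of 2.41, and MCM7 by 1.84.

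Other genes of the replication fork and origins, 31 tested, went the same way as the members in KMS-11, with 11 falls and 0 rises, in U266, with 12 rises and 1 fall, and in IM-9, with 11 falls and 2 rises, and in RPMI8226 6 fell and 2 rose. Their medians were -0.21, 0.19, -0.08 and -0.07. All genes tested had 5.83% falls and 2.44% rises in KMS-11, and 9.68% rises and 8.42% falls in U266. The same shares were 21.3% falls and 14.4% rises in IM-9 and 15.3% falls and 10.7% rises in RPMI8226. TOPBP1, a scaffold for firing origins and for checkpoint signalling, fell in RPMI8226 by 0.70 ± 0.06, and NASP, a histone chaperone, fell there by 0.38 ± 0.06 and in IM-9 by 0.36 ± 0.06. UHRF1, which keeps methylation on copied DNA, and WDHD1, which tethers polymerase alpha to the helicase, fell in KMS-11 by 0.39 ± 0.07 and 0.37 ± 0.07. DTL, which targets CDT1 for destruction, and RNASEH2A, which removes ribonucleotides, rose in U266 by 0.60 ± 0.07 and 0.47 ± 0.07, and TICRR, a firing factor, fell in IM-9 by 0.45 ± 0.06.

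Of 8 deoxynucleotide genes tested outside the 50, 0 passed in KMS-11, 2 rose in U266, 1 rose and 2 fell in RPMI8226, and 1 rose and 3 fell in IM-9. Among all genes tested, 5.83% fell and 2.44% rose in KMS-11, and 9.68% rose and 8.42% fell in U266. Falls and rises made up 15.3% and 10.7% of them in RPMI8226 and 21.3% and 14.4% in IM-9. RRM2B, the reductase subunit used outside S phase, fell in RPMI8226 by 0.61 ± 0.07, and SAMHD1, which degrades deoxynucleotides, rose in U266 by 0.51 ± 0.09, together with DCK, deoxycytidine kinase (0.31 ± 0.08). TK2, the mitochondrial thymidine kinase, rose by 0.30 ± 0.07 in RPMI8226 and 0.32 ± 0.07 in IM-9, where DTYMK, the kinase after TK1 and TYMS, fell by 0.31 ± 0.08. Of 14 purine and pyrimidine synthesis genes, 10 fell and 0 rose in IM-9 (median -0.32), 5 fell in KMS-11 (-0.22), 4 fell and 1 rose in RPMI8226 (-0.03), and 3 rose and 1 fell in U266 (-0.01). PPAT and PFAS, early enzymes of purine synthesis, fell in IM-9 by 0.65 ± 0.07 and 0.59 ± 0.07. IMPDH2, the first step to guanine nucleotides, fell in KMS-11 by 0.40 ± 0.06 and rose in RPMI8226 by 0.39 ± 0.06, where GMPS, the next step, fell by 0.51 ± 0.06. CTPS1, which makes CTP, fell in KMS-11 by 0.31 ± 0.06, and in U266 PAICS and GMPS, of purine synthesis, rose by 0.38 ± 0.06 and 0.26 ± 0.06.

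Genes that control the step from G1 to S, 24 tested, followed the members in U266, where 11 rose and 0 fell. In KMS-11 6 fell and 0 rose, in RPMI8226 6 fell and 1 rose, and in IM-9 8 fell and 4 rose. Beside these counts, 9.68% of all genes tested rose in U266 and 5.83% fell in KMS-11. Shares of falls and rises over all genes were 15.3% and 10.7% in RPMI8226 and 21.3% and 14.4% in IM-9. CDK6, the cyclin D kinase that phosphorylates the retinoblastoma protein, was 7.28 and 7.49 in parental and 8.98 and 9.07 in HR cells in U266 and rose there by 1.64 ± 0.07 (adjusted p 6.92e-09), a 3.12-fold change and larger than that of any member. CCND2, cyclin D2, rose in U266 by 0.66 ± 0.07. MYC, a growth factor-driven activator of many of these genes, fell in IM-9, 10.77 and 10.77 in parental and 9.996 and 10.01 in HR cells, by 0.77 ± 0.06 (adjusted p 9.03e-07), as did CCNA2, cyclin A2, by 0.63 ± 0.09. In RPMI8226 TFDP1, the E2F partner, and RB1, the retinoblastoma gene, fell by 0.43 ± 0.06 and 0.59 ± 0.10. Both lie on chromosome 13, where 58.6% of 215 tested genes fell in that line. CDC25A, the phosphatase that frees CDK2, and the repressor E2F8 fell in KMS-11 by 0.47 ± 0.08 and 0.31 ± 0.06.

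Genes of mitosis, 23 tested, moved with the members in some lines and not in others. In IM-9 15 fell and 0 rose (median -0.37), and in U266 7 rose and 0 fell (0.20). In RPMI8226 14 of 23 fell and 1 rose (-0.32), against 12 falls among 50 members. In KMS-11, where 28 of 50 members fell, 1 of 23 mitotic genes fell, MAD2L1, a spindle checkpoint protein, by 0.33 ± 0.09, and 0 rose (-0.07). That difference between the lists was not tested. Over all genes tested, 5.83% fell in KMS-11, 15.3% in RPMI8226 and 21.3% in IM-9, and 9.68% rose in U266. AURKA and UBE2C, of the spindle and the anaphase promoting complex, fell in RPMI8226 by 0.77 ± 0.09 and 0.94 ± 0.11. Both are genes of chromosome 20, where 43.3% of 356 tested genes fell in that line. CCNB1, cyclin B1, and BUB1B, of the spindle checkpoint, fell in IM-9 by 0.90 ± 0.10 and 0.50 ± 0.06, and BUB1 and the spindle motor KIF11 rose in U266 by 0.42 ± 0.07 and 0.33 ± 0.07.

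**Figure D4:**
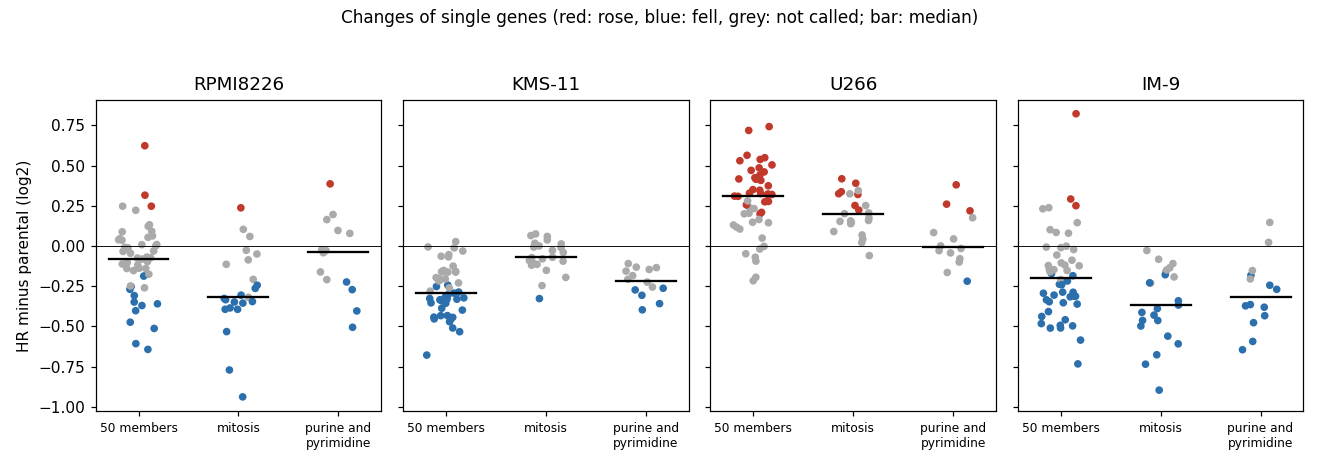
HR minus parental difference on the log2 scale (vertical) of each gene of 3 lists, the 50 members, mitosis and purine and pyrimidine synthesis, in the 4 lines, red where it rose, blue where it fell and grey where it did not pass, with a bar at the median. In KMS-11 the median is -0.29 for the members and -0.07 for mitosis, and in RPMI8226 it is -0.08 and -0.32.

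In RPMI8226 several members that fell lie among genes that fell as well. Over the 20 tested genes on each side of a member on its chromosome, the median difference was below -0.1 for 8 of the 12 members that fell, and the median over the 12 was -0.17 (range -0.41 to 0.02). MCM2 on chromosome 3 had neighbours with a median of -0.41, 24 of 40 of which fell. RFC3 on chromosome 13 had neighbours at -0.31, with 27 of 40 fallen, on a chromosome where 58.6% of 215 tested genes fell. PCNA and GINS1 lie on chromosome 20, where 43.3% of 356 genes fell, and GINS4 and MCM4 on chromosome 8, where 34.9% of 447 did. Among genes named from other lists, RRM2B also lies on chromosome 8. TOPBP1, IMPDH2 and GMPS lie on chromosome 3, where 173 of 676 tested genes fell and 168 rose. TYMS, which rose, had 24 neighbours with a median of 0.34, 13 of which rose. TYMS itself was 0.29 above them. Over all 50 members in RPMI8226, 32 lay below their neighbours and 18 above, with a median difference from them of -0.04. The number of gene copies in HR cells was not analysed here, and its part in these values was not tested.

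The neighbours of all 50 members had a median of -0.05 in IM-9 and of -0.02 in both U266 and KMS-11. In KMS-11 47 members lay below their neighbours and 3 above, with a median difference of -0.26, and 0 of the 28 that fell had neighbours below -0.1. In U266 46 lay above and 4 below, with a median of 0.28. The highest neighbour median in U266 was that of E2F1 on chromosome 20, which rose by 0.35 ± 0.11 among neighbours at 0.20, 14 of 40 of which rose, so that it was 0.15 above them. In IM-9 38 lay below and 12 above, with a median of -0.16. Of the 26 that fell in IM-9, 8 had neighbours below -0.1, the lowest being those of POLE at -0.19.

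**Figure D5:**
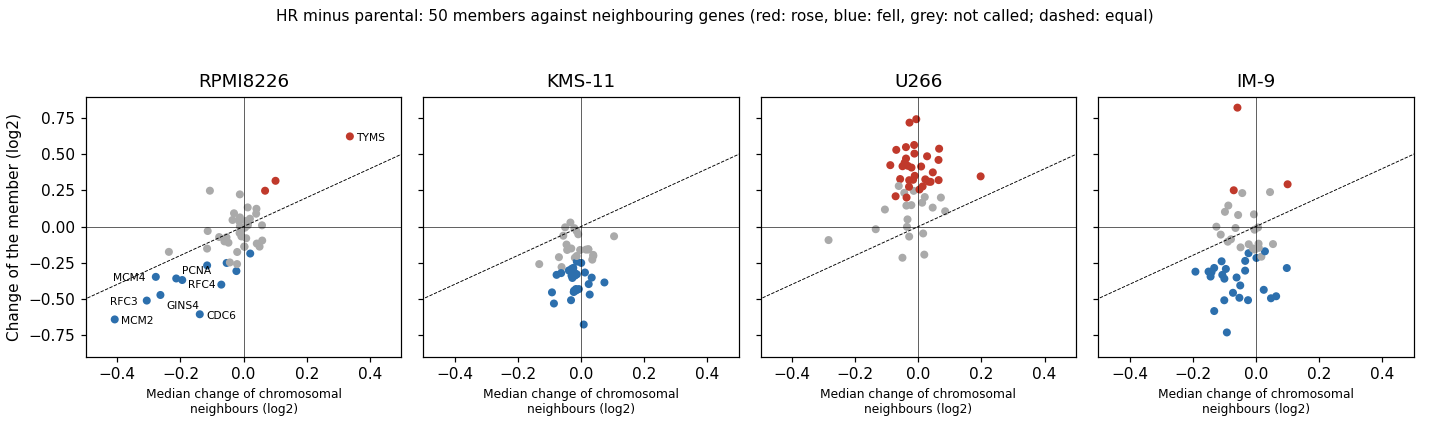
Difference of each of the 50 members (vertical, log2, HR minus parental) against the median difference of up to 20 tested genes on each side of it on its chromosome (horizontal, log2), in each line, red where the member rose, blue where it fell and grey where it did not pass, with a dashed line where the values are equal. In RPMI8226 the points of MCM2 and RFC3 lie at neighbour medians of -0.41 and -0.31, while in KMS-11 the fallen members lie between -0.09 and 0.07.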

How the data were processed

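Total RNA of 4 lines in 2 states was hybridised to 16 arrays. The table deposited by the authors holds log2 intensities of 33297 probe sets, and Affymetrix Expression Console 1.3.0 is named per the submitters' processing notes; background correction and normalization are not given in the sources used here. The design text names a Human Gene 2.0 ST array, but the platform table is of Human Gene 1.0 ST, and all its 21214 probe sets were found in the deposited table. Of the deposited probe sets, 19460 carried 1 symbol and 1754 several, and 12083 were absent from the platform table. Of those with 1 symbol, 19429 matched RefSeq (GRCh38.p14) and 31 did not. Whether a probe set also reads near-identical gene copies was not checked.

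Only genes that exceeded 6.27, the median of the table, on 2 or more arrays were tested. R 4.3.3 and limma 3.58.1 (lmFit, eBayes, 2-sided) fitted 8 groups over 16 arrays, with Benjamini-Hochberg adjustment over 12639 genes and a threshold of 0.05; errors are standard errors. The F test and pairwise tests compared HR effects between lines. For shifts across lines, the 8 group means entered 1 fit, blocked by line. The fit was tested on simulated data. The number of arrays limits the precision.

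The members and lists were chosen with earlier results of these data known. Members are given with their arrays if called the same way in 3 or more lines, called in opposite directions, among the 4 largest called changes of a line, or with the smallest F test p of a role group; from other lists, up to 2 called genes with the smallest p per line. The arrays of a line that share a number were checked as pairs: their deviations correlated at -0.05 in U266, 0.07 in KMS-11, 0.11 in IM-9 and 0.20 in RPMI8226, so the numbers were not taken to pair the arrays. The promoters shown and the comparison with chromosomal neighbours were chosen after values were seen. Alternatives were no or a stricter filter, other normalizations, probe set means, a replicate block, array weights, a variance trend, each line alone, and leaving out arrays or lines.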

Additional observations from a re-analysis of the deposited data

Results flagged for a closer look

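An F test of the difference between the 4 HR effects passed for 28 of the 29 members described with their arrays; the exception was CHAF1B. The adjusted p (limma, Benjamini-Hochberg over all genes tested) was 9.28e-05 for ORC1, 1.35e-05 for CDC6, 0.00179 for GMNN, 2.48e-06 for MCM2, 0.000172 for MCM3, 5.93e-05 for MCM4, 3.75e-05 for MCM5 and 1.56e-05 for MCM7. For the helicase activators it was 1.68e-05 for MCM10, 0.000335 for CDC45, 3.86e-05 for GINS2 and 0.000272 for GINS4. In the clamp loader it was 0.000169 for RFC2, 1.83e-06 for RFC3, 0.000193 for RFC4 and 0.000806 for RFC5. Among polymerase, primase and fragment joining genes it was 0.00187 for POLA2, 0.000542 for PRIM1, 0.00024 for POLD3, 0.000911 for POLE2, 0.000831 for FEN1 and 0.000672 for LIG1. Nucleotide synthesis gave 0.00434 for RRM1, 3.57e-05 for TYMS, 6.63e-06 for TK1 and 8.27e-05 for DUT. The last were CCNE2 with 0.00425 and CHAF1A with 0.00971. The members were chosen for their calls in single lines or for the smallest p of this F test in their role group, the latter alone for POLD3 and CHAF1A, so these values describe them and are not independent of that choice.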

How the results depend on the processing

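Of the 103 calls of members in single lines, 0 reversed in the alternatives run, and 74 passed in all that keep every array. Of 78 calls in single lines of the 29 members described with their arrays, 63 passed in all 9 alternatives that keep every array, and 43 also without any 1 array. The 15 lost with every array kept were CDC45, CHAF1B, FEN1, ORC1 and TYMS in KMS-11, CHAF1B, DUT and RFC2 in RPMI8226, ORC1 in U266, and GMNN, MCM2, MCM4, PRIM1, RFC5 and RRM1 in IM-9. Array weights gave 2 falls in U266 and 1 rise in IM-9. Centring on array medians gave 5 rises in RPMI8226 and 5 in IM-9, a variance trend gave 5 and 5 with 1 fall in U266, and quantile normalization again gave 5 rises in RPMI8226. Without the filter 1 member rose in IM-9. Each line fitted alone gave 7 falls in RPMI8226, 1 fall in U266, and 17 falls and 1 rise in IM-9.

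With 1 array left out, falls ranged from 8 to 15 in RPMI8226, 9 to 30 in KMS-11, 0 to 1 in U266 and 20 to 26 in IM-9, and rises from 2 to 5, 0 to 0, 20 to 34 and 1 to 5. Members past the F test of HR effects ranged from 36 to 43, and past that of parental levels from 49 to 50. RPMI8226 rises numbered 5 without RPMI8226-HR array 2. IM-9 rises numbered 1 without IM-9 parental array 1, IM-9-HR array 2, U266-HR array 1 or U266-HR array 2, and 5 without RPMI8226-HR array 1 or 2. With the replicate block 11 members fell and 3 rose in RPMI8226, 24 fell in KMS-11, 30 rose in U266, and 25 fell and 3 rose in IM-9, and 38 passed the F test. Across lines, the replicate block gave 1 call, ORC6 at -0.31 (adjusted p 0.0485), while 0 were called without the filter, after quantile normalization again, with a random block, or without any 1 line.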
